A study of Capra hircus with 27 samples.

Results

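Gene expression was compared in the heart between goats living at 2000 m (Zhaotong) and goats living at 600 m (Ya'an), with 3 libraries in each group. The comparison covered the 12349 genes whose mean expression over these 6 libraries was above 0.5 FPKM, of 22131 genes listed. FPKM counts sequenced fragments per kilobase of transcript, scaled to the mapped fragments of the library. All animals were about 3 years old, and the tissue was whole heart, with no region of the heart given. The labels give neither a treatment nor the sex, and the study's methods describe the 600 m and 3000 m animals as unrelated adult females. Each altitude holds its own population, so altitude and population cannot be told apart here. The 3 heart libraries from 3000 m (A'ba) were used to estimate the spread between replicates and are given beside the results. The labels name the libraries of a group as separate samples but do not tie them to animals, so each p-value measures the spread between these libraries.

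Heart muscle works without pause and lives almost entirely on oxygen-dependent burning of fatty acids and other fuels in its mitochondria. Thin air lowers the oxygen that reaches this tissue, and it also narrows the vessels of the lung, against which the right side of the heart has to pump. Cardiomyocytes make most of the RNA of the heart, with a few contractile and mitochondrial genes at very high levels, while vessel cells, fibroblasts and white blood cells add many other transcripts at low levels. In bulk tissue, fewer cells of a type and less RNA per cell cannot be told apart. The genes carry IDs of 3 kinds, beginning GOAT_ENSBTAP, GOAT_ENSP or goat_GLEAN, and 0 of the 22131 IDs were found in the RefSeq gene table of the assembly ARS1.2. No gene symbol was thus at hand, so no gene is given a function, and known marker genes could not be used to check the tissue label. Only a count by level was made. At 3000 m, 156 genes were at least 8-fold higher in heart than in lung and in muscle. Of these, 143 to 150 were above 0.5 FPKM in each of the 6 libraries. This count cannot check the tissue label, because a gene 8-fold lower in another tissue can still exceed 0.5 FPKM there. The same count was not set beside it for lung or muscle libraries.

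As estimated, the libraries differed little in depth, but between the groups the estimate rested on a smaller share of genes than within them. Relative depth, read from the value of 1 sequenced fragment among genes below 0.15 FPKM, was 0.908, 0.998 and 0.979 in replicates 1 to 3 at 600 m and 1.02, 1.04 and 1.06 at 2000 m, where 1 is the geometric mean of the 6. The absolute depth is unknown. The share of such genes whose ratio lay on the common value of 1 fragment, within 0.06 on the log2 scale, was 37.5% to 38.8% for pairs within 600 m and 35.3% to 37.6% within 2000 m. Between these groups it was 8.50% to 12.9%. Pairs of 3000 m and 600 m hearts were also low, at 10.6% to 18.7%. Pairs of 2000 m and 3000 m hearts reached 18.7% to 37.5% and pairs within 3000 m 17.9% to 35.3%. The lowest shares were thus those of pairs of a 600 m heart with a heart from another altitude. The ranges met, however, since 3000 m replicates 1 and 3 shared only 17.9%. Whether this difference takes part in the results below was not tested. Pearson's r across the 12349 genes was 0.975 to 0.978 within 2000 m, 0.955 to 0.980 within 600 m and 0.931 to 0.961 between the groups. Genes are not independent replicates. Replicate 1 at 600 m stood apart from its group, since it correlated as closely with the 2000 m libraries (0.957 to 0.961) as with the other 600 m libraries (0.955 and 0.962).

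Of the 12349 genes, 2791 (22.6%) differed between 2000 m and 600 m (limma, Benjamini-Hochberg adjusted p at most 0.05). At 2000 m, 2025 genes (16.4%) were higher and 766 (6.2%) were lower. The changes were mostly moderate. The median log2 change of FPKM + 1 was 0.78 for the genes called higher and -0.66 for those called lower, and 512 and 104 of them changed at least 2-fold on this scale. In 3510 genes (28.4%) every 2000 m library lay above every 600 m library, and in 1538 (12.5%) every one lay below. All but 24 of the called genes were among these. The count of called genes was 1502, 1432 and 1634 without 2000 m replicates 1, 2 and 3, 1828 without 600 m replicate 2 and 1571 without 600 m replicate 3. Without 600 m replicate 1 it was 3308.

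The direction of the majority depended on how libraries were scaled to each other. As deposited, 72.6% of the called genes were higher at 2000 m. Scaling by median of ratios made this share 46.9%, and quantile normalization made it 48.9%. The median log2 change over all 12349 genes was 0.13 as deposited, and median-of-ratios scaling moved it to -0.011. Changes smaller than this shift therefore have no fixed direction. Some larger ones have none either, since quantile normalization moved genes of low level further. It took the median change at 1 to 2 FPKM from 0.34 to -0.0034. Of the 2025 genes called higher, 973 were called higher under all 3 scalings, with a median log2 change of 0.94. Of the 766 called lower, 662 were called lower under all 3, with a median of -0.68. When the genes also had to be called in each of the 6 fits that leave out 1 library, 740 higher and 235 lower genes were left.

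The genes that rose and the genes that fell lay at different levels. The median of the mean FPKM was 4.76 for the genes called higher and 27.9 for those called lower, against 7.56 for all genes tested. After quantile normalization the medians were 10.01 and 10.2 FPKM, and the median of the lower genes was 45.6 FPKM without 2000 m replicate 3 and 18.4 FPKM without 600 m replicate 1. The middle 50% of the higher genes spanned 2.11 to 11.6 FPKM and that of the lower genes 12.5 to 70.7 FPKM. In single libraries, the genes called higher had a median of 2.98, 3.27 and 3.06 FPKM at 600 m and of 6.23, 6.52 and 6.35 FPKM at 2000 m. The genes called lower had a median of 30.3, 36.5 and 37.1 FPKM at 600 m and of 21.7, 21.3 and 20.8 FPKM at 2000 m. The called sets were chosen by this contrast, so these medians describe them and test nothing. The higher genes together held 2.21% to 2.45% of all FPKM at 600 m and 4.85% to 5.02% at 2000 m, while the lower genes held 10.2% to 11.6% and 6.85% to 7.32%.

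**Figure D1:**
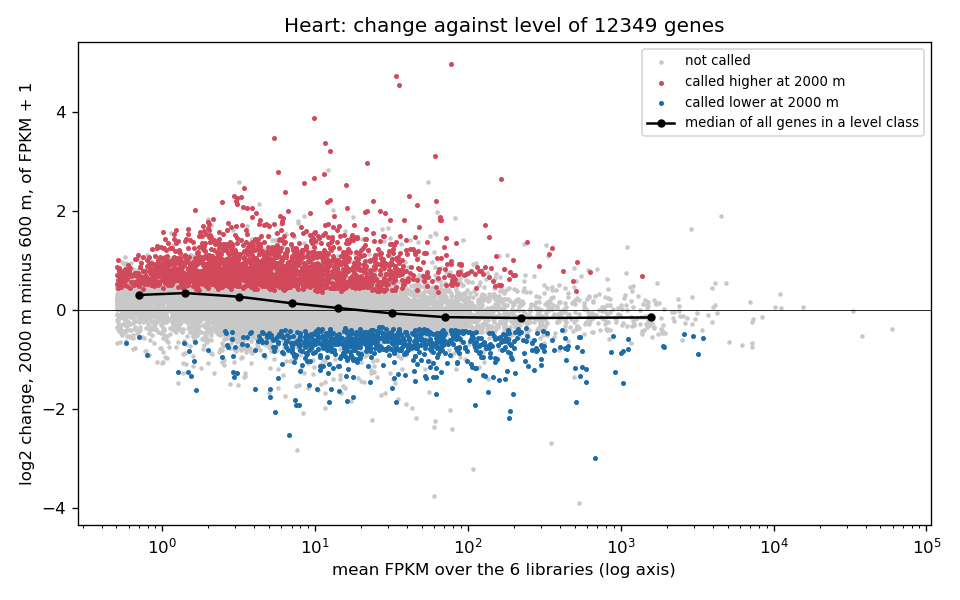
Log2 change of FPKM + 1 between 2000 m and 600 m in heart (vertical axis) against mean FPKM over the 6 libraries (log axis), with 1 point per gene, red where called higher at 2000 m, blue where called lower and grey where not called. The black line joins the median change of all genes in each level class, and it falls from 0.34 at 1 to 2 FPKM to -0.16 at 100 to 500 FPKM.

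The median change over all genes, called or not, was positive in the classes of low level and negative in those of high level. It was 0.30 among the 947 genes at 0.5 to 1 FPKM, of which 162 (17.1%) were called higher and 3 lower. Among the 1283 genes with a mean of 1 to 2 FPKM, the median log2 change was 0.34, and 308 genes (24.0%) were called higher and 9 (0.701%) lower. Among the 2529 genes at 2 to 5 FPKM, 22.9% were called higher and 1.27% lower. The calls were nearly balanced among the 1656 genes at 20 to 50 FPKM, with 192 higher and 198 lower. Above that level the lower calls prevailed. Among the 596 genes at 100 to 500 FPKM, the median log2 change was -0.16, and 30 genes (5.03%) were called higher and 126 (21.1%) lower. The median change of the 215 genes above 500 FPKM was -0.15, and 4 of them were called higher and 25 lower. Of the 500 most abundant genes of the heart, each averaging at least 172 FPKM, 15 were called higher and 88 lower. Median-of-ratios scaling kept this slope but moved the class medians down, to 0.24 at 1 to 2 FPKM and -0.33 at 100 to 500 FPKM. Quantile normalization left no slope, with class medians between -0.044 and 0.0021 and with 6.39% higher and 6.08% lower calls at 1 to 2 FPKM.

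**Figure D2:**
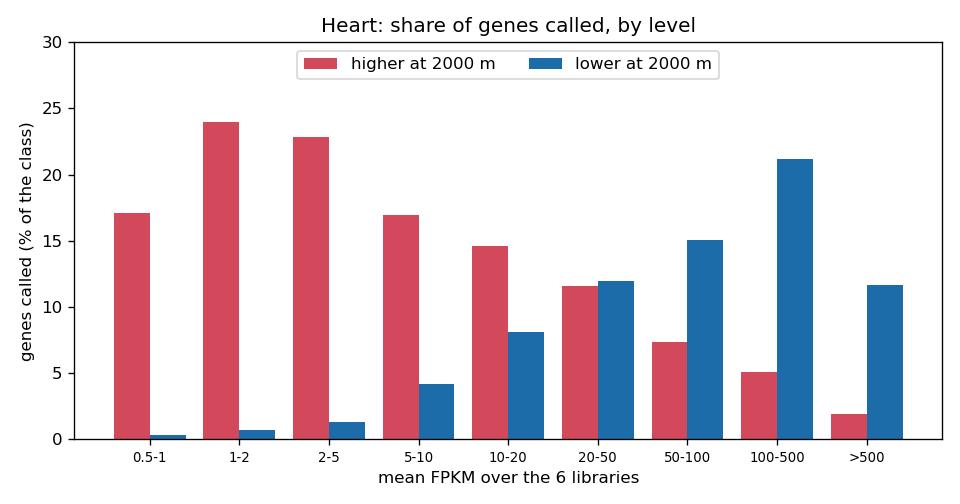
Share of genes called higher (red) and lower (blue) at 2000 m in heart, in percent of the genes in each class of mean FPKM over the 6 libraries. Higher calls peak at 24.0% in the class of 1 to 2 FPKM, and lower calls peak at 21.1% in that of 100 to 500 FPKM.

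As deposited, each library followed this pattern in the contrast between genes of low and high level, though not in every level class. The contrast was summarised per library as the median deviation from the gene mean of the 2230 genes below 2 FPKM, minus that of the 1548 genes above 50 FPKM, on the log2 scale. It was 0.24, 0.26 and 0.15 in the 2000 m libraries and -0.29, -0.20 and -0.26 in the 600 m libraries, so the groups did not overlap. The difference of 0.47 had a p of 0.1 in an exact two-sided permutation test, which is the smallest p that 3 libraries against 3 allow, and the adjusted p over the 10 measures tested per library was 0.125 (exact permutation test). The 3000 m libraries lay between the groups, at -0.0015 to -0.065. The difference was 0.44 to 0.53 without any 1 of the 6 libraries and 0.56 after median-of-ratios scaling. It was 0.22 without a filter on low values, where the low class also holds the genes with a mean below 0.5 FPKM. Since log2(FPKM + 1) compresses low values, it rose to 0.75 with a pseudocount of 0.1. Quantile normalization, which gives all libraries the same distribution, reduced it to 0.021 by construction.

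The spread of expression levels over the 12349 genes was accordingly narrower at 2000 m. The interquartile range of log2(FPKM + 1) was 2.41, 2.41 and 2.43 in the 2000 m libraries and 2.68, 2.65 and 2.73 in the 600 m libraries (exact permutation test, n = 3 and 3, p = 0.1). At 3000 m it was 2.55 to 2.58. The lower end of the range moved most. The 10th percentile averaged 1.23 (SD 0.028, n = 3) at 2000 m and 0.86 (SD 0.053, n = 3) at 600 m without overlap (exact permutation test, p = 0.1), while the 90th percentile overlapped, at 5.95 to 5.97 and 5.96 to 6.12 (exact permutation test, p = 0.3). Genes below 10 FPKM held 3.87% to 4.11% of all FPKM at 2000 m and 3.15% to 3.26% at 600 m (exact permutation test, p = 0.1). The 10 most abundant genes held 23.6% to 26.5% at 2000 m and 25.8% to 27.8% at 600 m, ranges that overlapped (exact permutation test, p = 0.2).

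More genes were detected in the heart at 2000 m. Above 0.5 FPKM, the 2000 m libraries held 12531, 12448 and 12574 genes and the 600 m libraries 11675, 11871 and 11823, of the 22131 listed. Every 2000 m library thus exceeded every 600 m library, and the mean difference was 728 genes (exact two-sided permutation test, n = 3 and 3, p = 0.1, adjusted p over 8 thresholds 0.133). The difference was 878 genes for any value above 0, 805 above 0.1 FPKM, 758 above 1 FPKM and 597 above 5 FPKM, again with no overlap. Above 100 FPKM the order was turned round. The 2000 m libraries held 753 to 793 such genes and the 600 m libraries 810 to 873 (exact permutation test, p = 0.1). The 3000 m heart libraries held 12149 to 12298 genes above 0.5 FPKM, between the other groups. After median-of-ratios scaling the difference at 0.5 FPKM was 590 genes, and without any 1 library it was 671 to 769. Relative depth also did not overlap between the groups, at 0.908 to 0.998 and 1.02 to 1.06, and its part in the detection of genes was not tested. Its comparison across the groups is less certain than within them, given the low shares of genes on the common value. The 2000 m library with the lowest depth, replicate 1 at 1.02, held 12531 genes above 0.5 FPKM, and the 600 m library with the highest, replicate 2 at 0.998, held 11871.

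**Figure D3:**
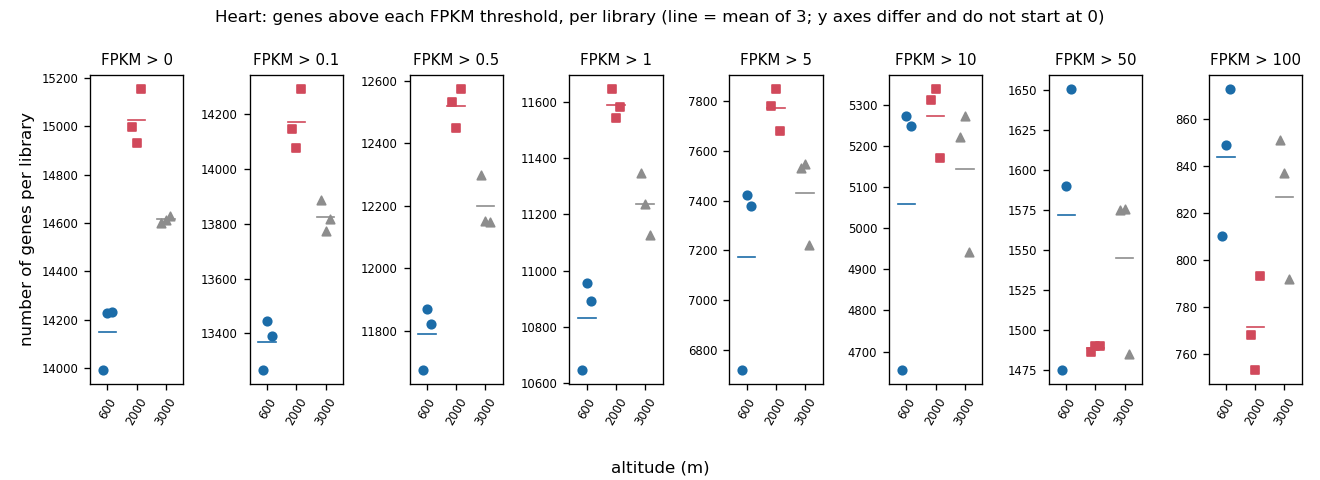
Number of genes above 8 FPKM thresholds in each heart library (vertical axes, which differ between panels and do not start at 0) at 600 m (blue circles), 2000 m (red squares) and 3000 m (grey triangles), with lines at the mean of 3 libraries. Up to 5 FPKM all 2000 m libraries lie above all 600 m libraries, and above 100 FPKM all lie below.

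The gain in detection was spread over many genes at low level. A total of 234 genes were above 0.5 FPKM in all 3 libraries at 2000 m and in 0 of 3 at 600 m, and 15 genes showed the opposite pattern. The mean FPKM of the 234 genes at 2000 m had a median of 0.956, with a middle 50% of 0.791 to 1.27, and 7 of them were above 5 FPKM. A further 288 genes were detected in all 3 libraries at 2000 m and in 1 at 600 m, and 410 in all 3 and in 2. The threshold that chose these genes fixes their direction, so only their values elsewhere add to it. Of the 234 genes, 73 were above 0.5 FPKM in all 3 heart libraries at 3000 m and 32 in none of them. In lung at 600 m, 154 of the 234 (65.8%) were above 0.5 FPKM in all 3 libraries, and so were 10 of the 15 genes of the opposite pattern. Among all 9667 genes above 0.5 FPKM in no 600 m heart, 1284 (13.3%) were so in lung. Those 9667 include the 5347 genes listed at 0 in every heart library. In lung at 2000 m the counts were 195 of 234 and 8 of 15. Whether these shares differ was not tested. Genes listed at exactly 0 in all 3 hearts at 600 m and above 0 in all 3 at 2000 m numbered 149, against 10 the other way, and their median at 2000 m was 0.167 FPKM.

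Genes with higher levels in another tissue were also followed as lists. At 3000 m, 1888 genes were above 1 FPKM in lung and at least 8-fold higher there than in heart, a choice that used none of the 6 compared libraries. Their summed FPKM in heart was 2125, 2989 and 3241 at 600 m and 3871, 3531 and 4352 at 2000 m. The groups did not overlap (exact permutation test, n = 3 and 3, p = 0.1), and replicate 1 was the lowest at 600 m. Of these genes, 549, 596 and 557 were above 0.5 FPKM in the hearts at 600 m and 803, 755 and 815 at 2000 m. Only 736 of the 1888 passed the filter on mean FPKM, so a gene could enter through its 2000 m values alone. Of the 736, 223 were called higher and 7 lower, and the median log2 change of all 1888 was 0.12. These genes are low in heart, and among all tested genes at 0.5 to 5 FPKM 22.02% were called higher, against 31.3% of the 604 listed genes in that range. At 5 to 50 FPKM the shares were 14.7% of all genes and 25% of the 124 listed genes. Leaving out 2000 m replicate 1 gave 146 higher calls among the 736, where 9.46% of all genes were called higher. Leaving out 600 m replicate 3 gave 147, where that share was 10.2%. The count was 154 and 152 without 2000 m replicates 2 and 3, where the shares were 9.16% and 10.3%. Without 600 m replicate 2 it was 153, where the share was 12.1%. Only without 600 m replicate 1 was it higher, at 205, where the share was 15.6%. Quantile normalization gave 96 higher and 30 lower calls among the 736, where 9.91% of all genes were called higher and 10.3% lower. Without 600 m replicate 1 the lower calls numbered 45.

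Genes with higher levels in skeletal muscle than in heart differed between the groups in number detected, while their summed level overlapped. The list held 342 genes at least 8-fold higher in muscle than in heart at 3000 m, and 87 to 102 of them were above 0.5 FPKM in the hearts at 600 m and 134 to 142 at 2000 m. Only 126 of the 342 passed the filter on mean FPKM, so a gene could enter through its 2000 m values alone. Of the 126, 34 (27.0%) were called higher and 2 (1.59%) lower, against 16.4% and 6.2% of all genes. At 0.5 to 5 FPKM, 30.9% of the 94 listed genes were called higher, against 22.02% of all genes. The shares were 18.5% of 27 listed genes and 14.7% of all genes at 5 to 50 FPKM, and 0% of 5 and 5.68% above 50 FPKM. After quantile normalization 17 and 5 of the 126 were called, against 9.91% and 10.3% of all genes. Their summed FPKM in heart was 1327 to 1782 at 600 m and 1443 to 1560 at 2000 m, so the groups overlapped (exact permutation test, p = 0.9).

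Genes higher in heart than in the other tissues had a share called higher near that of all genes, but not at matched level. Of the 156 genes at least 8-fold higher in heart than in both other tissues at 3000 m, 148 were tested, of which 28 (18.9%) were called higher and 5 (3.38%) lower, against 16.4% and 6.2% of all genes, with a median log2 change of 0.34. The order varied with level, since the shares called higher were 17.65% of 34 genes at 0.5 to 5 FPKM, against 22.02% of all genes in that range, 25.8% of 62 genes at 5 to 50 FPKM, against 14.7% of all genes in that range, and 11.5% of 52 genes above 50 FPKM, against 5.68%. Their summed FPKM was 45875, 29917 and 27332 at 600 m and 41576, 35181 and 41530 at 2000 m (exact permutation test, p = 0.4), with the highest value of all in replicate 1 at 600 m. Of the 148, 46 were called higher without that library, where 15.6% of all genes were. Without any 1 of the others the count was 12 to 16, where 9.16% to 12.1% of all genes were called higher. It was 18, with 11 lower, after median-of-ratios scaling, where 12.1% of all genes were called higher and 13.7% lower. Quantile normalization gave 25 higher and 5 lower calls among the 148, where 9.91% of all genes were called higher and 10.3% lower. The 295 genes at least 8-fold higher in both striated muscles than in lung summed to 137554 to 179953 FPKM at 600 m and 151825 to 155869 FPKM at 2000 m (exact permutation test, p = 0.7). Of the 285 tested, 38 (13.3%) were called higher and 23 (8.07%) lower, near the 16.4% and 6.2% of all genes. After median-of-ratios scaling this order turned to 23 higher and 41 lower, as it did for all genes, at 12.1% and 13.7%. Quantile normalization kept it, with 31 higher and 16 lower, where 9.91% of all genes were called higher and 10.3% lower. As deposited, 27.1% of 48 listed genes at 0.5 to 5 FPKM were called higher, against 22.02% of all genes. The shares were 18.1% of 105 and 14.7% at 5 to 50 FPKM, and 4.55% of 132 and 5.68% above 50 FPKM. Without 600 m replicate 1 the counts were 65 and 32, and without any 1 of the others 21 to 25 and 7 to 11.

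**Figure D4:**
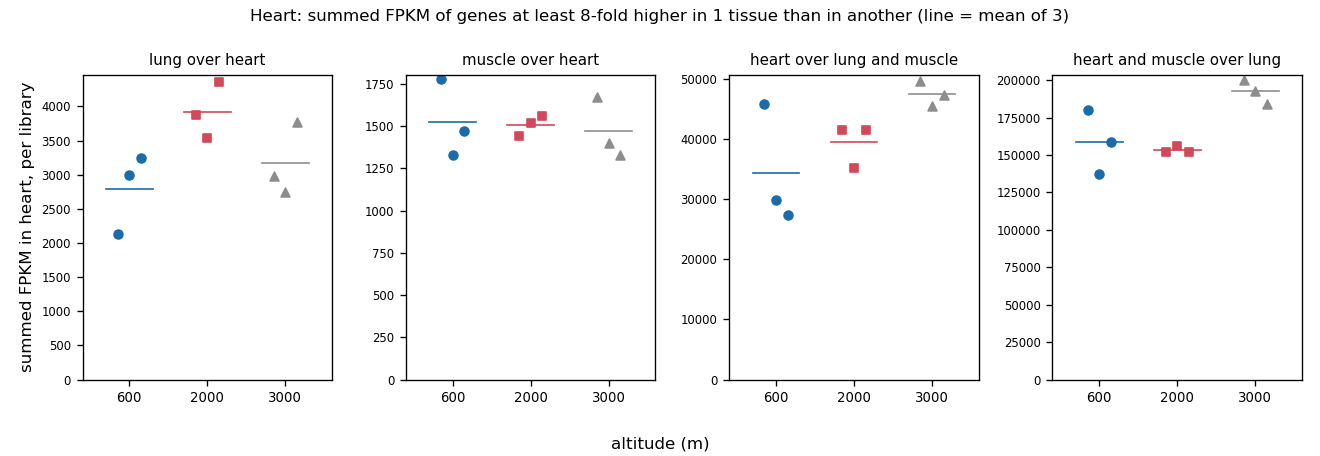
Summed FPKM in each heart library (vertical axes, starting at 0) of genes at least 8-fold higher in lung than heart, muscle than heart, heart than lung and muscle, and both striated muscles than lung, with lines at the mean of 3 libraries. The lists were chosen on the 3000 m libraries (grey), and the 2000 m hearts (red) lie above all 600 m hearts (blue) in the first panel and overlap them in the other panels.

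The largest shifts were far larger than the general trend. Changes of at least 2 on the log2 scale were seen in 40 genes upward, of which 35 were called, and in 17 genes downward, of which 5 were called. The median standard error was 0.40 for the called and 0.83 for the uncalled upward changes, and 0.52 and 1.28 for the downward ones. Among the called genes with groups that did not overlap and with a mean of at least 5 FPKM, 969 were higher and 711 lower, and those with the largest changes are described next.

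The largest rise was that of GOAT_ENSP00000374859. It stood at 8.30, 1.19 and 1.16 FPKM in the hearts at 600 m and at 69.4, 55.9 and 329.9 FPKM at 2000 m. Replicate 3 was the highest of its group at 2000 m and replicate 1 at 600 m. On the log2(FPKM + 1) scale it differed by 4.96 (SE 1.09, limma adjusted p = 0.0143), and it stayed called in the 15 alternatives tried, with changes of 4.16 to 5.66. At 3000 m the gene was at 158, 38.2 and 873 FPKM in heart. It was a major lung transcript, number 3 by mean FPKM in the lung at 2000 m, with 2823, 4443 and 11424 FPKM there and 4062, 201 and 164 FPKM in lung at 600 m. Replicate 1 was thus the highest 600 m library in lung as it was in heart. The change in heart exceeded that in lung by 1.61 (SE 1.90, limma adjusted p = 0.760), a difference within its error.

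The second largest rise was that of GOAT_ENSBTAP00000007399. It was listed at 13.1, 0 and 0 FPKM in heart at 600 m and stood at 55.0, 62.4 and 71.6 FPKM at 2000 m, where the 3 libraries were close to each other. The log2 change was 4.72 (SE 0.95, limma adjusted p = 0.0106), and the 14 alternatives that kept the gene gave 4.09 to 6.95, the last with a pseudocount of 0.1. At 3000 m the gene was lower, at 4.67, 14.9 and 29.9 FPKM. In lung it stood at 132, 2.67 and 9.29 FPKM at 600 m and at 170 to 238 FPKM at 2000 m, so here too replicate 1 was the highest 600 m library in both tissues. The heart change was larger than the lung change by 1.21 (SE 1.39, limma adjusted p = 0.754) and than the muscle change by 3.55 (SE 1.48, limma adjusted p = 0.151), and neither difference passed the test.

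The next 8 rises spanned log2 changes of 2.78 to 4.54, with limma adjusted p from 0.0014 to 0.0471. These genes averaged 10.8 to 101 FPKM at 2000 m and 0 to 20.5 FPKM at 600 m, and 1 of them was listed at 0 in all 3 hearts at 600 m. In 4 of the 8, replicate 1 was the highest 600 m library. The fifth and seventh rises were genes of very high level in skeletal muscle, with means of 19792 and 55127 FPKM there at 2000 m and of 10.8 and 23.1 FPKM in heart. For both, the heart change exceeded the muscle change (limma adjusted p = 0.0180 and 0.0365). The sixth rise was scarcely seen in the other tissues. It averaged 22.1 FPKM in heart at 2000 m and 1.03 FPKM at 600 m, was below 0.6 FPKM in each lung library of these altitudes, and its heart change exceeded that in lung by 3.63 (SE 0.51, limma adjusted p = 0.00205). The rises ranked 4 and 10 were also seen in lung, with means of 1058 and 419.8 FPKM in lung at 2000 m.

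**Figure D5:**
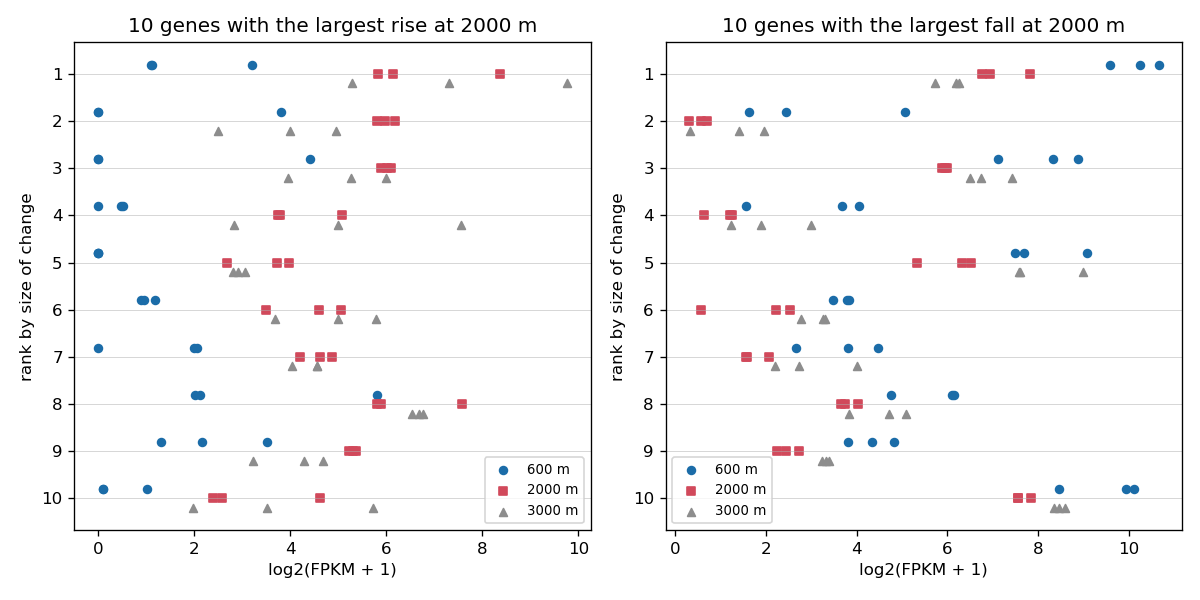
Expression as log2(FPKM + 1) (horizontal axis) of the 10 genes with the largest called rise (left) and fall (right) at 2000 m, by rank of change (vertical axis), in single heart libraries at 600 m (blue circles), 2000 m (red squares) and 3000 m (grey triangles). The groups of 600 m and 2000 m do not overlap in any of the 20 genes, as the choice required, and in the falls the 600 m libraries reach 1616 FPKM.

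The largest fall was that of GOAT_ENSP00000005178. It stood at 769, 1616 and 1222 FPKM in the hearts at 600 m and at 225, 122 and 107 FPKM at 2000 m, and the lowest 600 m library was more than 3 times as high as the highest at 2000 m. Its mean fell from 1203 FPKM (SD 424, n = 3) to 152 FPKM (SD 64.0, n = 3), and on the log2 scale the fall was -2.99 with an SE of 0.33 (limma adjusted p = 0.00251). It was called in each of the 15 alternatives, with changes of -3.31 to -2.75. At 3000 m the heart held 52.4 to 75.9 FPKM. The change in lung was -2.58 and that in muscle -3.48, and the heart differed from lung by -0.42 (SE 0.77, limma adjusted p = 0.859) and from muscle by 0.48 (SE 0.81, limma adjusted p = 0.757).

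The second largest fall, that of GOAT_ENSP00000365815, rested on a low level and an uneven group. It stood at 32.4, 4.44 and 2.09 FPKM at 600 m and at 0.479, 0.233 and 0.610 FPKM at 2000 m. Replicate 1 was the highest at 600 m, as it was in lung, where the 600 m libraries held 229, 8.74 and 6.48 FPKM. The log2 change of -2.53 (SE 0.75) had a limma adjusted p of 0.0396. It was -1.52 without 600 m replicate 1 (limma adjusted p = 0.0354). The call was lost without 600 m replicate 2 and without each of the 2000 m libraries, when the 3000 m hearts were left out of the fit and without a filter on low values (limma adjusted p = 0.0603 to 0.107).

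The next 8 falls had log2 changes of -2.17 to -1.85 and limma adjusted p from 0.0031 to 0.0428. They averaged 9.77 to 815 FPKM at 600 m and 1.08 to 202 FPKM at 2000 m. Replicate 1 was the lowest 600 m library in 6 of the 8 and the highest in 0. The mean at 3000 m lay between the other means in all 8, and 1 of the 8 was called between 3000 m and 600 m, a comparison that shares the 600 m hearts with this one. For the next 8 rises, 6 were called in that comparison.

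Calls were also counted by kind of ID. Of 4460 goat_GLEAN genes, 915 (20.5%) passed the filter, against 62.4% of the 9280 GOAT_ENSBTAP and 67.3% of the 8391 GOAT_ENSP genes. The shares called higher were 19.6%, 16.0% and 16.3% in that order, and those called lower were 4.59%, 6.63% and 6.02%. The goat_GLEAN genes had the lowest level, with a median of 3.86 FPKM. Among genes at 2 to 5 FPKM, 19.7% of the goat_GLEAN genes and 23.1% of the others were called higher. Above 50 FPKM, 12.7% of 79 goat_GLEAN genes were called higher and 10.1% lower, against 5.31% and 17.3% of 1469 others. These shares are given as counts without a test.

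The heart was then set against the other tissues for the same pair of altitudes. Of the 22131 genes listed, the number above 0.5 FPKM was higher by 283 on average in lung (13747 to 13926 at 2000 m, 13385 to 13688 at 600 m) and by 236 in muscle (11627 to 11846 and 11495 to 11515), against 728 in heart. The exact permutation test gave p = 0.1 in lung. No p is given for muscle, because replicates 1 and 2 at 600 m were nearly the same there and do not count as separate samples. Whether these differences between tissues exceed the spread between libraries was not tested. For the 12349 genes tested in heart, the median log2 change of those below 2 FPKM in heart was 0.32 in heart, 0.048 in lung and 0.038 in muscle, and that of the genes above 50 FPKM was -0.15, -0.13 and -0.054. The genes called higher in heart had a median log2 change of 0.78 there, of 0.34 in lung and of 0.20 in muscle. For those called lower the medians were -0.66, -0.54 and -0.59. The genes were chosen on the heart libraries, so the order of these medians is no test.

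The number of genes whose change differed between heart and lung, by a test of the difference itself, depended on whether the libraries were paired by number. An interaction contrast called 40 of 12349 genes (0.324%, limma adjusted p at most 0.05), 37 with a more positive change in heart and 3 with a more negative one. The 37 genes had a median log2 change of 1.00 in heart and of -0.62 in lung, and 27 of them were higher in heart and lower in lung at 2000 m. The count was 19 and 26 without 2000 m replicates 2 and 1, 70 without 600 m replicate 1, and 25 after median-of-ratios scaling. With only heart and lung in the fit it was 26. It was 488 in the same fit with the replicate number as a block, which pairs the heart and lung libraries of the same number. Against muscle, where no fit with a block was made because the averaged 600 m sample carries 2 numbers, 658 genes (5.33%) differed, of which 559 had the more positive change in heart, with medians of 0.48 in heart and -0.69 in muscle. The other 99 genes had medians of -0.28 and 0.95. This count was 326, 243 and 382 without 2000 m replicates 1, 2 and 3, and 321 and 426 without 600 m replicates 1 and 3.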

How the data were processed

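Strand-specific libraries were made from total RNA of heart, lung and muscle. The labels name TopHat2 2.0.11 and Cufflinks 2.2.1 for every library, and the methods name CHIR_1.0 as the goat genome. How the 2000 m goats were handled beyond this is not given in the sources used here. The authors deposited log2(FPKM + 1), without read counts, for 22131 genes in 27 libraries. FPKM was computed back by undoing the log2 and subtracting 1.

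Groups came from the labels. Altitudes were compared with limma 3.58.1 in R 4.3.3 (empirical Bayes with a mean-variance trend, two-sided, Benjamini-Hochberg adjustment) on log2(FPKM + 1). The 9 hearts entered the fit, and genes needed a mean FPKM above 0.5 over the 6 compared hearts. The interaction fit held all tissues, with muscle 600 m replicates 1 and 2 averaged as 1 sample, since their robust SD of the log2 ratio was 0.0868, against 0.201 to 0.502 in all other replicate pairs. Same-numbered heart and lung libraries deviated together from their group means (r of 0.149 to 0.487, and -0.417 to 0.154 for different numbers). An alternative fit of heart and lung therefore used the number as a block, although the labels do not tie numbers to animals. Single values per library were compared with exact two-sided permutation tests. Relative depth was fitted to the commonest log2 ratio of low FPKM values between libraries, and pairs scattered with an SD of 0.0362. Both limma models were tested on simulated data. For heart 2000 m vs 600 m over 12349 genes, changes of log2 1 and log2 2, placed in genes of at least 5 FPKM, were found in 68% and 91% of cases, with 8 false calls. The simulated libraries held neither the shift by level nor an outlying library like 600 m replicate 1. The figures may therefore not carry over to the real contrast. For the interaction of heart and lung over 12349 genes the same changes were found in 48% and 88%, with 7 false calls. The simulated interaction fit held only heart and lung libraries, drawn independently of each other with the means and spreads of heart. In the real data all tissues entered the fit and same-numbered libraries deviated together, so these figures may not carry over to it.

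The named genes are the called genes with the largest changes in each direction whose groups do not overlap and whose mean is at least 5 FPKM, 2 in each direction by ID and the next 8 as ranges. Single genes described by rank, the level contrast and the tissue lists were chosen after seeing the data, and the members and lists with earlier results of these data known. Planned marker lists were not run, since no ID matched a symbol. Alternatives changed the pseudocount, filter, scaling, samples in the fit, variance model, block and single libraries.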

Additional observations from a re-analysis of the deposited data

Results flagged for a closer look

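The number of genes whose change between 2000 m and 600 m differed between heart and lung, 40 by a limma interaction contrast, stood out because the difference between the tissues was itself tested. The corresponding number for heart and muscle was 658. In both sets most genes had the more positive change in heart, 37 of 40 and 559 of 658. Scaling within each tissue by median of ratios left 25 and 467 genes. Pairing the heart and lung libraries by number, as a replicate block, gave 488 genes for lung, and no such fit was made for muscle.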

How the results depend on the processing

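The count of called genes was 1432 to 3308 without single libraries and 2090 to 3192 under the 9 other alternatives. The share called higher was 74.5% without a filter, 70.8% with a mean FPKM above 1, 70.6% with the 80% filter, 46.9% after median-of-ratios scaling, 48.9% after quantile normalization, 76.8% with only the compared groups, 75.1% with the replicate block, and 58.7% to 81.6% without single libraries. In the same order of filters the median log2 change was 0.080, 0.11 and 0.11, it was 0.16 with a pseudocount of 0.1, -0.011 and -0.018 after the scalings, and 0.063 to 0.16 without single libraries. The median FPKM of higher and of lower genes was 10.01 and 10.2 after quantile normalization, 4.63 to 5.52 and 18.4 to 45.6 without single libraries. Quantile normalization set the detection difference to 0 by construction. The heart and lung count was 25 after median-of-ratios scaling, 25 with a pseudocount of 0.1, 26 with only these tissues, 488 with the replicate block, and 19 to 70 without single libraries, and the muscle count was 243 to 575. Except where the construction is named, the cause was not tested.

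Replicate numbers do not pair hearts of different altitudes, since deviations of same-numbered 600 m and 2000 m hearts correlated at -0.068 to 0.036. The replicate block gave 2389 called genes. The absolute depth is unknown, which limits statements on genes near 0, and 3 libraries a group cannot give a permutation p below 0.1.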
